A study of Mus musculus with 24 samples.

Results

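Microglia of wild-type mice were compared with and without lipopolysaccharide (LPS), a component of the outer membrane of Gram-negative bacteria. The comparison takes in 6 of the 24 RNA-seq libraries of the series, namely 3 of quiescent and 3 of LPS-treated cultures, chosen by their genotype and treatment labels. Of the 24411 genes listed, 10866 were tested, namely those whose normalized counts averaged 10 or more over these 6 libraries. The series asks how reactive glia bear on a mouse model of amyotrophic lateral sclerosis, and it also holds microglia and astrocytes that carry the SOD1G93A transgene. Primary microglia were sorted with magnetic beads for Cd11b from whole brains of mice 7 to 10 days after birth, and the strain of the wild-type mice is not given in the sources used here. Both groups shared a serum-free medium with IL-34 at 100 ng/ml, TGF-β2 at 2 ng/ml, cholesterol and heparan sulfate, and received either PBS, called quiescent here, or LPS at 50 ng/ml. The length of the LPS exposure is not given in the sources used here.

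LPS is handed by CD14 to a receptor made of TLR4 and MD-2, which signals through the adaptor MyD88 to NF-κB and AP-1 and through TRIF to the interferon regulatory factors. NF-κB and AP-1 switch on cytokines, chemokines and their inhibitors, while type I interferon released by the cell acts back through STAT factors on antiviral genes. Microglia are the resident macrophages of the brain, where signals through CSF1R and the TGF-β receptors maintain the genes by which they are told from other macrophages.

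The quiescent libraries held 10157188, 2550560 and 6940651 reads and the LPS libraries 8121620, 5098168 and 4674300. Values below are normalized counts, given for replicates 1, 2 and 3 in that order, and means carry the SD over n = 3. Fold changes are differences of mean log2(normalized count + 1), LPS minus quiescent, and for low genes they can lie above or below the log2 ratio of the group means. LPS library 1 stood apart from the other LPS libraries: against their mean, its log2 values had a median deviation of 0.23 over genes whose longest transcript had at most 2294 bases, and of -0.30 over genes with at least 4925 bases. In the quiescent libraries the same medians lay between -0.041 and 0.069. Genes named below whose call depends on a library are given with that library left out. Lists below count tested members, 777 of the 916 genes listed. At the limits used for calls, an adjusted p under 0.001 and over 2-fold, 10.2% of all genes tested rose and 10.6% fell. Each list count is to be read against these shares. Of all genes tested, 312 averaged under 10 in quiescent and 353 under 10 in LPS cultures. These passed the filter through the other group alone, which set their direction, so list counts and medians that include them are descriptions. The labels do not say whether replicates were separate cultures or animals, so p-values measure the spread between these samples. Reads of replicate pairs were set against counting noise, which alone gives a chi-square per degree of freedom near 1. It was 2.55, 1.85 and 2.05 for quiescent pairs and 1.65 for LPS libraries 2 and 3. LPS library 1 gave 15.0 and 13.8 against LPS libraries 2 and 3, and the source of these spreads was not tested. Among 3 against 3 samples an exact permutation test cannot go below p = 0.1, and the adjusted p-values here come from limma fitted over all genes tested. Statements that groups did not overlap are descriptions, and the share of all genes tested without overlap was not counted. Separation was not rare: in limma 3113 genes were higher and 3072 lower at an adjusted p under 0.05 at any fold.

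The libraries carried the markers of microglia in both states. All 17 markers of microglia and macrophages were tested, and their summed level was 101811, 111808 and 103871 in quiescent and 58310.2, 55751 and 54174 in LPS cultures. At an adjusted p under 0.001 and over 2-fold, which 20.8% of all genes tested met, 9 of these markers fell. The hematopoietic phosphatase gene Ptprc, at 2469, 2480.4 and 2434 without and 3376, 4053 and 3761 with LPS, and the lineage factor Spi1, at 2568, 2434 and 2543 without and 3063, 2638 and 2470.2 with LPS, were not called by limma. In bulk RNA, fewer cells of a type and less RNA per cell cannot be told apart. Some defining genes of other cells were near or at 0 and others were not. The T cell gene Cd3e and the endothelial gene Cldn5 had no read in any library, and the neuronal gene Rbfox3 had at most 0.757 normalized counts. Neuron markers summed to 102, 88.4 and 92.3 without and 87.4, 72.5 and 102 with LPS, with the most counts in Map2, and lymphocyte markers to 25.4, 33.7 and 19.7 without and 45.5, 38.1 and 33.9 with LPS, with the most in Lck. The summed astrocyte markers stood at 1436, 1388 and 1502 without and 1403, 1137 and 1624 with LPS. Gfap, the astrocyte filament gene, was at 290.3, 295 and 309.6 without and 319, 213 and 346 with LPS. Of 12 tested members 2 rose, among them Gja1 from 29.4, 18.9 and 33.3 to 146, 182 and 221, and 1 fell, together 25%, near the 20.8% of all genes tested. The member that fell was Ndrg2, from 401, 423 and 485, above Gfap in each quiescent library, to 39.7, 43.0 and 40.4. The sum of oligodendrocyte lineage markers dropped from 7005, 7435 and 7356 to 954, 979.7 and 965, and 2 of 7 tested fell: Cspg4, a surface proteoglycan gene that made up most of the sum in quiescent cultures, from 6198, 6644 and 6552 to 366, 419 and 417, and Mbp, of myelin, from 443, 450.2 and 444 to 88.1, 109 and 91.2. The median log2 fold change of the 7 went the other way, at 0.30, though none was called higher. The share called was 28.6%, against 20.8% of all genes tested. Sox10, which defines that lineage, had at most 3.91 normalized counts in any library and Pdgfra, of its precursors, at most 17.6. Border macrophage markers summed to 3268, 3831 and 3689.6 without and 6193, 6654 and 6482 with LPS, while Lyve1 and Cd163 of the same list, the latter named after its values were seen, had no read. Of 7 tested border macrophage markers 2 rose and 1 fell, against 2 that fell without quiescent library 2. Endothelial and mural markers summed to 409.5, 433 and 422 without and 388, 468 and 413 with LPS, and of 7 tested 3 rose and 1 fell. The member that fell was Flt1, with the most counts of the list in quiescent cultures, from 240.0, 307 and 287 to 28.6, 28.3 and 16.9. Kdr, among those that rose, from 94.4, 82.0 and 101 to 153, 234 and 184 (log2 fold change 1.01), was not called without quiescent library 1, quiescent library 2, LPS library 2 or LPS library 3 (1.03, 0.93, 0.86 and 1.03), with a pseudocount of 5 or quantile normalization, in limma without a trend or by edgeR. Monocyte and granulocyte markers summed to 28.9, 27.3 and 41.6 without and 188, 269 and 223 with LPS, and 3 of 3 tested rose, among them Ly6c2, which passed the filter through LPS cultures alone, at 0.507, 0 and 0.757 without and 34.5, 33.2 and 28.6 with LPS. Ccr2, another, went from 10.1, 8.42 and 19.7 to 37.5, 54.1 and 44.3 (log2 fold change 1.82), and was not called without quiescent library 1, quiescent library 2, LPS library 2 or LPS library 3 (1.71, 1.59, 1.69 and 1.83) or in limma without a trend. The other 9 in the table were too low to test. The part of other cells in the results was not tested.

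LPS changed genes in about equal numbers up and down. At an adjusted p under 0.001 and more than a 2-fold change, 1110 genes rose and 1153 fell, which is 10.2% and 10.6% of the genes tested and 20.8% together. Among the rises were cytokines, chemokines and antiviral genes, and among the falls genes of resting microglia and cell division. Cxcl3, a neutrophil chemokine, averaged 18.1 ± 5.45 normalized counts in quiescent and 3038 ± 242 in LPS cultures (SD, n = 3), and Plau, the urokinase gene, 3335 ± 168 and 148 ± 36.3. Without LPS library 1 the counts were 1137 and 1197, and 1053 and 1090 of the genes above were among them. Without quiescent library 1, 2 or 3, in that order, 1034, 1028 and 1054 of the genes that rose were called again. Of the genes that fell, 918, 926 and 939 were. Genes that passed the filter through LPS cultures alone were 200 of 1110 that rose, and through quiescent cultures alone 168 of 1153 that fell. By list, the former were 9 of 17 interleukins and related cytokines, 4 of 19 brakes on inflammatory signalling, 3 of 4 TNF family ligands, 2 of 7 CC chemokines, 2 of 7 CXC and CX3C chemokines, 4 of 12 chemoattractant and purine receptors, 3 of 12 guanylate-binding and immunity-related GTPases, 3 of 8 metalloproteinases and inhibitors, 2 of 11 AP-1, EGR and C/EBP factors, 2 of 7 adhesion genes and 2 of 3 endothelial and mural markers that rose, and the latter 4 of 23 mitotic genes, 2 of 17 replication genes, 2 of 18 homeostatic genes, 2 of 7 prostaglandin and leukotriene genes and 2 of 8 chemoattractant and purine receptors that fell; the other lists had at most 1 such called member in either direction. Over all genes tested the median log2 fold change was 0.0048, and -0.050 with quantile normalization. Scaling by size factors places the typical gene near no change, so this median and the balance of rises and falls depend on the scaling. Normalized counts totalled 5.15e+06, 5.37e+06 and 5.25e+06 in quiescent and 5.96e+06, 6.27e+06 and 6.09e+06 in LPS libraries.

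**Figure D1:**
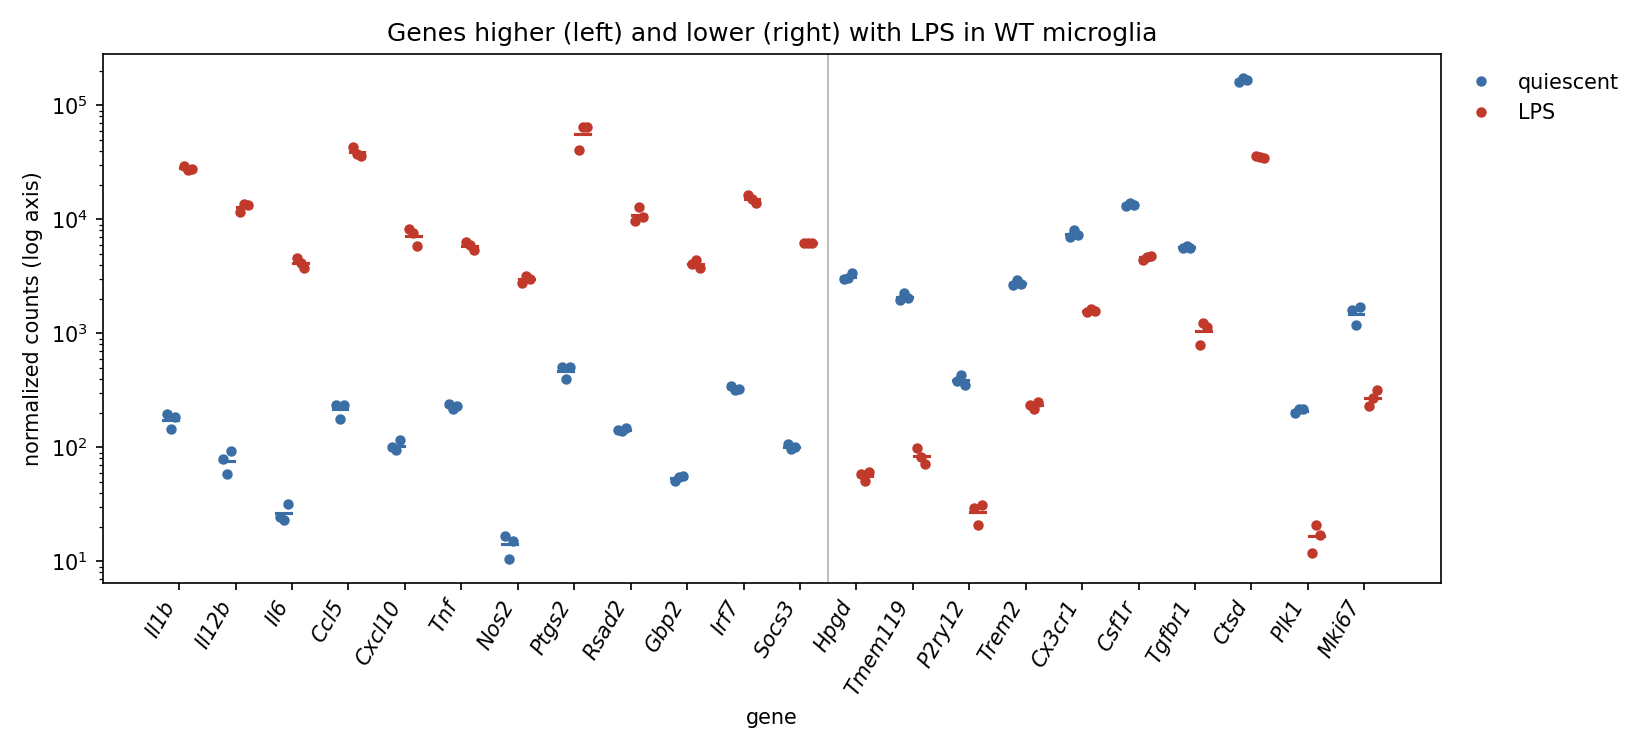
Normalized counts (log axis) of 22 genes in each library of WT microglia, with blue points for quiescent and red points for LPS cultures and a bar at each group's mean. The 12 genes on the left were higher in each LPS library than in any quiescent library, as for Nos2 with at most 16.7 against at least 2766, and the 10 on the right were lower.

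H2-Q8, Nos2 and Saa3 were among the largest rises, and Hpgd, Nanos1 and S100a4 among the largest falls. H2-Q8, a class I gene with near copies among which reads may be split, was at 14.2, 0 and 11.4 without and 1525, 1555 and 1492 with LPS. Its log2 fold change was 8.06, but 6.80 without quiescent library 2 and 8.76 without quiescent library 1. Nos2 encodes the inducible nitric oxide synthase and lies at chr11:78920787-78960226 of GRCm38. It measured 16.7, 10.5 and 15.1 in quiescent and 2766, 3207 and 3007 in LPS cultures (log2 fold change 7.65, SE 0.16, adjusted p = 9.5e-11). Cxcl3 went from 24.4, 14.7 and 15.1 to 3303, 2829 and 2982 (log2 fold change 7.35, SE 0.17, adjusted p = 2.3e-10), and each LPS library was above each quiescent library in both. Saa3, an acute phase protein gene, was at 85.3, 65.2 and 77.2 without and 19655, 12579 and 12635 with LPS, its LPS library 1 above the other LPS libraries. Among the falls, Hpgd, the enzyme that inactivates prostaglandins, at chr8:56294552-56321046, went from 2981, 3040.0 and 3362 to 58.0, 50.4 and 61.2 (log2 fold change -5.77, SE 0.10, adjusted p = 3.8e-11). Nanos1, an RNA-binding protein gene, went from 278, 335 and 279 to 4.41, 7.38 and 9.12, the calcium-binding protein gene S100a4 from 1109.8, 976 and 1238 to 61.0, 24.6 and 28.6 and the predicted gene Gm11545 from 352, 259 and 294 to 8.08, 11.1 and 9.12. Rasgrp3, an activator of Ras proteins, went from 654, 717 and 734 to 33.0, 28.3 and 31.3, Cd300lb, a receptor of myeloid cells, from 540.5, 579 and 605 to 23.5, 29.5 and 40.4, and Cables1, a partner of cyclin-dependent kinases, from 214, 208 and 170.3 to 6.61, 11.1 and 9.12. The largest rises and falls were picked among called genes whose groups did not overlap, so their separation was set by that choice. H2-Q8 averaged under 10 in quiescent cultures, and Nanos1, Gm11545 and Cables1 under 10 in LPS cultures. These genes passed the filter through the other group alone.

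The LPS receptor gene was not called, while its co-receptor genes rose. Tlr4 measured 236, 236 and 251 in quiescent and 185, 252 and 220.1 in LPS cultures (log2 fold change -0.15, SE 0.12, adjusted p = 0.34), and the groups overlapped. Its co-receptor gene Cd14 went from 5175, 4986 and 5169 to 29245, 28624 and 27362, and Ly96, which encodes MD-2, from 35.0, 37.9 and 37.1 to 134, 108 and 100.3. Both were higher in each LPS library. Of 16 genes of the receptor complex and its adaptors, 6 rose and 1 fell, with a median of 0.36 against 0.0048 over all genes. The adaptor Myd88 rose by 1.72 on the log2 scale. Irak3, a kinase relative that dampens the pathway, rose from 95.9, 116 and 104 to 2186, 2715 and 2574. The member that fell was Cd180, a TLR4 relative that restrains it (log2 fold change -1.47, SE 0.11, adjusted p = 1.0e-06). Among 8 other Toll-like receptors 4 rose, among them Tlr1 from 34.5, 42.1 and 43.1 to 626, 695 and 646, and Tlr2, its partner for bacterial lipopeptides, from 2235, 2190.0 and 2161 to 7891, 8554 and 7813.

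Genes of the NF-κB system rose together with their own inhibitors. Of 20 subunits and inhibitors 13 rose, with a median of 1.70. Nfkb2, a precursor subunit of the noncanonical branch, went from 435, 417 and 425 to 3529, 3837 and 3799.7 (log2 fold change 3.13, SE 0.08, adjusted p = 3.0e-10), and Nfkbia, the inhibitor that holds NF-κB in the cytoplasm, from 346, 319.8 and 347 to 2749.5, 2438 and 2307. Nfkbiz, a nuclear coactivator needed for Il6, rose from 197, 130.4 and 152 to 3372, 4155 and 4009. These libraries did not overlap between states. Rel was at 135, 135 and 142 without and 416, 908 and 762 with LPS, lowest of the LPS values in library 1. The subunit Rela, at 1315, 1357 and 1303 without and 2210.5, 2441 and 2326 with LPS, was higher in each LPS library but under 2-fold (log2 fold change 0.81, SE 0.08, adjusted p = 6.6e-06). Among 14 IRF and STAT factors 6 rose. Irf7, which amplifies interferon production, went from 346, 316 and 326 to 16242, 14964 and 13949 (log2 fold change 5.51, SE 0.08, adjusted p = 2.2e-11), whereas Irf8, a factor of the microglial lineage, was at 3386, 3503 and 3342 without and 1880.0, 1808 and 1792 with LPS, under 2-fold, and was called lower with quantile normalization (-1.14). Of 19 AP-1, EGR and C/EBP factors 11 rose and 2 fell. Batf rose from 12.7, 2.10 and 6.81 to 765, 648 and 598, and Cebpa, a factor of resting macrophages, fell from 1856, 2001 and 1844 to 405, 368 and 441.

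Most genes that restrain inflammatory signalling rose too. Of 22 brakes on inflammatory signalling 19 rose, a median of 4.32. Socs3, which blocks cytokine receptors that signal through JAK kinases, measured 106, 96.8 and 101 in quiescent and 6199, 6221 and 6198 in LPS cultures (log2 fold change 5.92, SE 0.08, adjusted p = 2.2e-11). The receptor antagonist gene Il1rn went from 310.1, 324 and 359 to 19383, 22998 and 21186, and Tnfaip3, which encodes the deubiquitinase A20, from 246, 255 and 278 to 4516, 5554 and 5189. Il10, the anti-inflammatory interleukin, was at 0.507, 0 and 2.27 in quiescent cultures and at 190.2, 141 and 159 after LPS. Cd274, the gene of the checkpoint ligand PD-L1, rose by 5.38 on the log2 scale.

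Ligands of the innate response rose from low levels. Of 21 interleukins and related cytokines 17 rose, with a median of 4.22. Il1b, the interleukin released through the inflammasome, measured 195, 145 and 185 in quiescent and 29132, 27266 and 27637 in LPS cultures (log2 fold change 7.33, SE 0.11, adjusted p = 2.2e-11), and Il1a 149, 118 and 168 without and 23641, 26970.1 and 25883 with LPS. Il12b, the shared subunit of IL-12 and IL-23, at chr11:44400063-44414677, went from 78.7, 58.9 and 92.3 to 11686, 13618 and 13418, and Il6 from 24.4, 23.1 and 31.8 to 4616, 4111 and 3775. All LPS libraries lay far above all quiescent libraries in these genes. Csf3, the granulocyte growth factor, was at 1.01, 2.10 and 0 without and 266, 262 and 251 with LPS. Tgfb1 was at 2201, 2577 and 2315 without and 2429, 2372 and 2361 with LPS, with overlapping groups. Ifnb1, the gene of interferon-β, had at most 1.30 normalized counts in any library and was not tested.

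Tumor necrosis factor and most of the chemokines tested rose as well. Tnf went from 242, 217 and 232 to 6303, 5907 and 5345 (log2 fold change 4.66, SE 0.09, adjusted p = 6.4e-11). Of 7 ligands of the family 4 rose and 1 fell. The member that fell was Tnfsf12, which encodes TWEAK, from 314, 349 and 299.7 to 64.6, 57.8 and 54.7. Among 10 CC chemokines 7 rose, with a median of 5.15. Ccl5, which draws T cells and monocytes, was at 237, 177 and 234 without and 43526, 37404 and 35681 with LPS (log2 fold change 7.49, SE 0.12, adjusted p = 2.4e-11). Ccl3, a chemokine for monocytes, was at 2451, 2182 and 2489 without and 96518, 92869 and 89112 with LPS. In both, the LPS libraries were above every quiescent library. Of 11 CXC and CX3C chemokines 7 rose and 1 fell. Cxcl10, an interferon-induced chemokine for T cells, went from 101, 94.7 and 116 to 8180.3, 7538 and 5883, and the neutrophil chemokine Cxcl2 from 107, 58.9 and 103 to 11421, 10670.0 and 10365. Cxcl14 went the other way, from 443, 501 and 441 to 59.5, 55.3 and 57.3.

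Receptors moved in both directions. Of 27 cytokine receptors 8 rose and 6 fell (51.9% together, against 20.8% of all genes tested). Cd40, through which T cells activate myeloid cells, rose from 14.7, 12.6 and 13.6 to 2264, 2041 and 1878 (log2 fold change 7.13, SE 0.12, adjusted p = 2.4e-11), and Tnfrsf1b, the gene of TNF receptor 2, from 879, 852 and 834 to 19118, 22134 and 21462. Genes of both receptor chains for the TGF-β in the medium fell, Tgfbr1 from 5605, 5792 and 5609.8 to 783, 1233 and 1145 (log2 fold change -2.45, SE 0.15, adjusted p = 1.8e-07). Tgfbr2 fell by 2.19 on the log2 scale. Csf1r, the receptor for the IL-34 in the medium, fell from 13159, 14013 and 13429 to 4386, 4713 and 4793 (log2 fold change -1.55, SE 0.08, adjusted p = 4.5e-08). Among 26 chemoattractant and purine receptors 12 rose and 8 fell. Fpr1, a receptor for bacterial formyl peptides, rose from 12.7, 12.6 and 10.6 to 1858, 1669 and 1570.4, and Ccr7, which guides cells to lymph nodes, from 3.55, 2.10 and 5.30 to 494, 489 and 546. C5ar2, a receptor for complement C5a, fell from 199.9, 194 and 174 to 9.55, 4.92 and 10.4, and the fractalkine receptor Cx3cr1 from 7015, 8019.6 and 7284 to 1527, 1652 and 1582. In each of these, no quiescent library reached the range of the LPS libraries. Ccr7, under 10 on average in quiescent cultures, and C5ar2, under 10 on average in LPS cultures, passed the filter through the other group, which set their direction.

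Interferon-induced genes rose almost throughout. Of 32 antiviral effectors 27 rose, with a median of 3.75. Rsad2, which encodes viperin, went from 142, 139 and 148 to 9669.6, 12764 and 10390.0 (log2 fold change 6.24, SE 0.11, adjusted p = 3.0e-11), Ifit1, a binder of viral RNA, from 132, 139 and 144 to 6777, 7419.9 and 6241, and Oasl1 from 34.5, 35.8 and 36.3 to 4334, 4440.1 and 3882. The lowest LPS value was above the highest quiescent value in each. Of 12 tested guanylate-binding and immunity-related GTPases 12 rose, with a median of 6.01. Gbp2 was at 50.7, 54.7 and 56.0 without and 4083, 4375 and 3742 with LPS (log2 fold change 6.21, SE 0.09, adjusted p = 2.2e-11) and Gbp5, which promotes inflammasome assembly, at 15.7, 12.6 and 18.2 without and 1413, 1802 and 1496 with LPS. These genes have near copies, among which reads may be split. Of 14 nucleic acid sensors 10 rose and 1 fell. Ifi205 went from 22.8, 10.5 and 25.0 to 3765, 3578 and 2966 and Zbp1, which senses nucleic acid in necroptosis, from 58.4, 54.7 and 64.3 to 2505, 2331 and 2057. The member that fell was Tmem173, the gene of STING, from 369.9, 402 and 387 to 123, 106 and 99.0 (log2 fold change -1.82, SE 0.11, adjusted p = 2.7e-07).

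Among genes of antigen presentation, more of class I, which serves CD8 T cells, rose than of class II, which serves CD4 T cells. Of 22 class I genes 17 rose, with a median of 1.92. The peptide transporter gene Tap1 went from 281, 335 and 304 to 3272, 3274 and 2927, the class I activator Nlrc5 from 55.3, 58.9 and 50.7 to 614, 728 and 656, and B2m, the light chain, from 11639, 11918 and 12004 to 45101, 41606 and 38794. These groups did not overlap. Of 8 class II genes 1 rose and 2 fell (37.5% together, against 20.8% of all genes tested). H2-Ab1 rose from 146, 137 and 132 to 362, 277 and 294 (log2 fold change 1.15, SE 0.12, adjusted p = 1.8e-05), while the peptide-loading gene H2-DMa fell from 190.3, 221 and 166 to 21.3, 20.9 and 35.2 (log2 fold change -2.88, SE 0.21, adjusted p = 1.0e-06). Cd74, the invariant chain, was at 389, 381 and 410.2 without and 498, 372 and 492 with LPS and was not called. Among 14 costimulatory and checkpoint genes 9 rose, with Cd80 going from 5.58, 2.10 and 5.30 to 324, 316 and 269.5, and 2 fell, with Havcr2, the gene of TIM-3, going from 1661, 1633 and 1654 to 148, 179 and 146.

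Inflammasome and cell death genes moved in both directions. Of 27 inflammasome and cell death genes 12 rose and 2 fell. Nlrp3, the sensor, went from 434, 402 and 409 to 3081, 3483 and 3538 (log2 fold change 3.02, SE 0.09, adjusted p = 7.9e-10), and Casp4, whose product binds LPS in the cytoplasm, from 36.0, 27.3 and 34.8 to 605, 531 and 508. Mlkl, the executor of necroptosis, rose from 14.2, 10.5 and 9.08 to 452, 402 and 408. Pycard, which encodes the adaptor ASC, fell from 138, 173 and 154 to 83.0, 47.9 and 54.7 (log2 fold change -1.34, SE 0.20, adjusted p = 0.0002), a call lost without quiescent library 2, quiescent library 3 or LPS library 3 (log2 fold change -1.26, -1.34 and -1.28), which left 1 member lower, and also in limma without a trend. Ripk3 was at 36.5, 42.1 and 34.8 without and 43.3, 45.5 and 31.3 with LPS with overlapping groups. Complement split: of 15 genes 4 rose and 4 fell. C3 went from 56.8, 33.7 and 66.6 to 1163, 1441 and 1359 and Cfb, the protease of the alternative pathway, from 4.57, 4.21 and 9.08 to 1015, 819 and 784, whereas C1qa, of the classical pathway, fell from 8273, 9154 and 8327 to 3496, 2839.6 and 2649.9 (log2 fold change -1.53, SE 0.11, adjusted p = 6.7e-07). Of 7 Fc receptor genes 3 rose and 3 fell. The inhibitory Fcgr2b rose from 149, 139 and 151 to 1487, 1453 and 1440.2 and Fcgr3 fell from 1858, 2066 and 1850.5 to 795, 752 and 759.

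Most genes by which resting microglia are known fell. Of 21 homeostatic genes 18 fell, with a median of -2.36 against 0.0048 over all genes. Tmem119, a surface protein gene used to tell microglia from other macrophages, at chr5:113793729-113800396, went from 1973, 2259 and 2028 to 99.1, 82.4 and 71.6 (log2 fold change -4.62, SE 0.12, adjusted p = 5.3e-10). P2ry12, the ADP receptor by which processes move to injury, went from 382, 429 and 356 to 29.4, 20.9 and 31.3 (log2 fold change -3.81, SE 0.17, adjusted p = 1.8e-08). In both genes each LPS library was under each quiescent library. Rnase4 fell by 4.20 and Olfml3 fell by 2.36 on the log2 scale. Siglech, at 37.0, 35.8 and 28.0 without and 33.0, 27.0 and 27.3 with LPS, was low in both states and was not called, and the matrix gene Sparc, at 1485, 1579.9 and 1450.1 without and 715, 734 and 811 with LPS, stood just under the 2-fold limit (-0.998 on the log2 scale) and was called without quiescent library 1 (-1.01), quiescent library 3 (-1.02) or LPS library 3 (-1.05), with quantile normalization (-1.21), and by DESeq2 and edgeR. Among 20 lineage transcription factors 8 fell and 3 rose. Mef2c fell from 1419, 1382 and 1369.9 to 206, 313 and 267 and Sall1, specific to microglia among macrophages, from 647, 623 and 648 to 243, 329 and 309.9; without LPS library 1 Sall1 stood at -0.998 on the log2 scale and was not called. Maf rose from 284, 261 and 315 to 970.1, 1292 and 1125, and Runx1, at 1242, 1239 and 1282 without and 1050.2, 1399 and 1500.1 with LPS, overlapped.

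Genes of the disease-associated state were split. Of 25 such genes 5 rose and 10 fell, with a median of -0.56. Trem2, the lipid receptor on which that state depends, averaged 2773 ± 164 in quiescent and 234 ± 16.9 in LPS cultures (SD, n = 3) with no overlap (log2 fold change -3.56, SE 0.09, adjusted p = 3.4e-10). Its signalling partner Tyrobp fell from 2634, 2811 and 2469.6 to 1266, 1028 and 984. Lpl, the lipoprotein lipase, fell from 7418, 8293 and 8414 to 858, 864 and 806 and Spp1, osteopontin, from 17719, 15547 and 20960.1 to 4492, 3926 and 3914. The protease inhibitor Cst7 rose from 76.1, 79.9 and 74.9 to 374, 343 and 305. Apoe, at 15663, 9663 and 14683 without and 18844, 14316 and 13476 with LPS, and Gpnmb, at 3133, 3602 and 3707 without and 3229, 3712 and 3354 with LPS, overlapped between states. Of 20 scavenger and engulfment receptors 12 fell and 4 rose. Marco, a scavenger receptor for bacteria, rose from 6.60, 6.31 and 7.57 to 693, 559 and 606 and Cd36, a receptor for oxidized lipid, from 344, 417 and 389 to 1783, 2266 and 2304. Mertk, a receptor for apoptotic cells, fell from 594, 599.6 and 602 to 224, 275 and 307, and its ligand gene Gas6 from 958, 1285 and 1009 to 132, 98.3 and 116.

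Genes of eicosanoid metabolism moved in both directions. Ptgs2, the inducible cyclooxygenase, went from 504, 399.7 and 505 to 41010.3, 64661 and 64032 (log2 fold change 6.89, SE 0.17, adjusted p = 2.9e-10). Its LPS library 1 was lowest, still far above quiescent cultures. Ptges, the synthase that acts after it, went from 73.6, 61.0 and 74.2 to 7097, 7508 and 7669.8. Ptgs1, the constitutive cyclooxygenase, fell from 334, 406 and 378 to 49.2, 40.6 and 70.3, and the leukotriene genes Alox5ap and Ltc4s fell from 529, 642 and 587 to 50.7, 57.8 and 46.9 and from 68.0, 82.0 and 57.5 to 4.41, 4.92 and 1.30. Of 19 genes of the list 5 rose and 7 fell. Of 15 arginine and nitric oxide genes 5 rose (33.3%, against 10.2% of all genes tested). The arginine transporter Slc7a2 went from 143, 105 and 111 to 3580.1, 5506 and 5623 and Gch1, which makes the cofactor of the synthase, from 171, 206 and 194 to 753, 604 and 611. In the redox list 6 of 21 rose (28.6%, against 10.2% of all genes tested). Sod2, the mitochondrial superoxide dismutase, rose from 376, 459 and 385 to 7856, 7216 and 7339, while Hmox1, at 5840.5, 6818 and 6343 without and 7298, 6659 and 6648 with LPS, overlapped.

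Lists of metabolism differed in the share of genes called, which was 20.8% over all genes tested. Of 43 respiratory chain and ATP synthase genes, limma, DESeq2 and edgeR each called 0, and 18 had an unadjusted p under 0.05 in limma. Their median was 0.02, and -0.062 with quantile normalization. Of 21 genes of the tricarboxylic acid cycle 3 fell (14.3%), namely Idh1, Idh3a and Suclg2, against 5 without quiescent library 1 or LPS library 1. Idh3a was not called without LPS library 2 (-0.98). Citrate synthase, Cs, was at 1111, 1214 and 1118 without and 1039, 1135 and 1108 with LPS. Of 25 glycolysis genes 2 rose, namely Hif1a and Hk3, and 3 fell, with Pdk1 going from 399, 463 and 386 to 72.0, 87.3 and 89.8, together a share near that of all genes tested. Hif1a, the hypoxia factor, was at 1438, 1447 and 1484 without and 2459, 3806 and 3555 with LPS (log2 fold change 1.14, SE 0.14, adjusted p = 5.7e-05), and was not called with quantile normalization (0.90) or in limma without a trend. The glucose transporter Slc2a1 was at 811, 907 and 873 without and 1290.3, 1367 and 1354 with LPS, under 2-fold. Gapdh and Ldha were lower, also under 2-fold (log2 fold change -0.46 and -0.42). The median of the 25 glycolysis genes was -0.29, and -0.64 with quantile normalization, and 22 had an unadjusted p under 0.05 in limma. Of 22 sterol synthesis genes 3 fell (13.6%). Of 19 genes of sterol efflux and liver X receptor targets 5 fell and 1 rose (31.6% together), against 2 that rose without quiescent library 2. Among the falls was the desaturase Scd2, from 5302, 5754 and 5595 to 1069, 1010.5 and 1191. The member that rose was Nr1h3, which encodes a liver X receptor, from 8.63, 16.8 and 7.57 to 49.9, 39.3 and 29.9 (log2 fold change 1.81, adjusted p = 0.00091), a call lost without quiescent library 1, quiescent library 3 or any LPS library (1.69, 1.61, 1.64, 1.80 and 1.99), with a pseudocount of 0.5, without a filter and in limma without a trend. The efflux transporter Abca1, whose transcript is long, was at 9977, 10172 and 10320.4 without and 5247, 10370.1 and 10299 with LPS: LPS library 1 alone was low, and the log2 fold change was -0.30 with it and 0.025 without it. In iron handling Lcn2, the siderophore binder, rose from 159.9, 158 and 154 to 1458, 1121 and 1188, and Fth1, the ferritin heavy chain, went from 76376, 94807 and 83218 to 231944, 193752 and 195621, though reads may be split with its pseudogenes. In that list 5 of 17 rose and 4 fell (52.9% together).

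Of 35 lysosomal genes 8 fell and 1 rose, together 25.7% against 20.8% over all genes tested. By direction, 10.6% of all genes tested fell and 10.2% rose. Ctsd, a cathepsin with the most normalized counts of any gene in quiescent cultures not scaled by length, fell from 161364, 173777 and 167124 to 35726, 34934 and 34307 (log2 fold change -2.26, SE 0.09, adjusted p = 8.1e-09). Tfeb, the master factor of lysosomal genes, fell from 199, 198 and 210.4 to 58.8, 51.6 and 46.9, and Ctsc rose from 1878, 2091 and 2049 to 6397, 6904 and 6761. The states did not overlap in any of these. Among 20 metalloproteinases and inhibitors 8 rose and 5 fell. The collagenase Mmp13 went from 101, 116 and 117 to 4344, 4826 and 4961 and Serpinb2, an inhibitor of plasminogen activators, from 10.7, 10.5 and 16.7 to 1979.9, 2231 and 2294, while Plau, the activator urokinase, fell from 3286, 3522 and 3196 to 128, 127 and 190.1 (log2 fold change -4.51, SE 0.15, adjusted p = 2.0e-09). Of 18 adhesion genes 7 rose and 4 fell, with Itgal, an integrin of leukocytes, going from 729.7, 741 and 728 to 3817, 5004 and 4868 and Itga6, a laminin receptor, from 3160.0, 3545 and 3240.1 to 256, 309.8 and 329.

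Most genes of mitosis and replication fell. All but 1 of 24 mitotic genes fell, with a median of -2.69, and 17 of 24 replication genes fell, with a median of -1.83. Mki67, which marks cycling cells, went from 1595, 1174 and 1693 to 231, 269 and 322 (log2 fold change -2.43, SE 0.16, adjusted p = 3.3e-07), and the mitotic kinase Plk1 from 198, 217 and 216 to 11.8, 20.9 and 16.9. Of 19 cell cycle inhibitors and G1 cyclins 5 rose and 5 fell. Ccnd1, the cyclin of growth factor signalling, fell from 4984, 5716 and 5078 to 405, 325 and 383, while Ccnd2 rose from 337, 278 and 291 to 717, 1040.0 and 1035 and Gadd45b, a stress gene, from 44.7, 35.8 and 37.8 to 2794, 2498 and 2408. Pcna, the replication clamp, was at 1192, 1273 and 1223 without and 738, 639 and 662 with LPS, under 2-fold, and was called lower with quantile normalization (-1.07). Of 12 genes often used as references 2 rose and 1 fell, a share near that of all genes tested. Hprt fell from 532, 629 and 528 to 263, 242 and 227. Without quiescent library 3 or LPS library 1 the number that rose was 1, and without quiescent library 3 or LPS library 3 the number that fell was 2. Actb was at 65964, 76702 and 69606 without and 40189, 38542 and 38634 with LPS, lower in each LPS library, while Tbp was at 114, 114 and 124 without and 112, 107 and 113 with LPS.

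**Figure D2:**
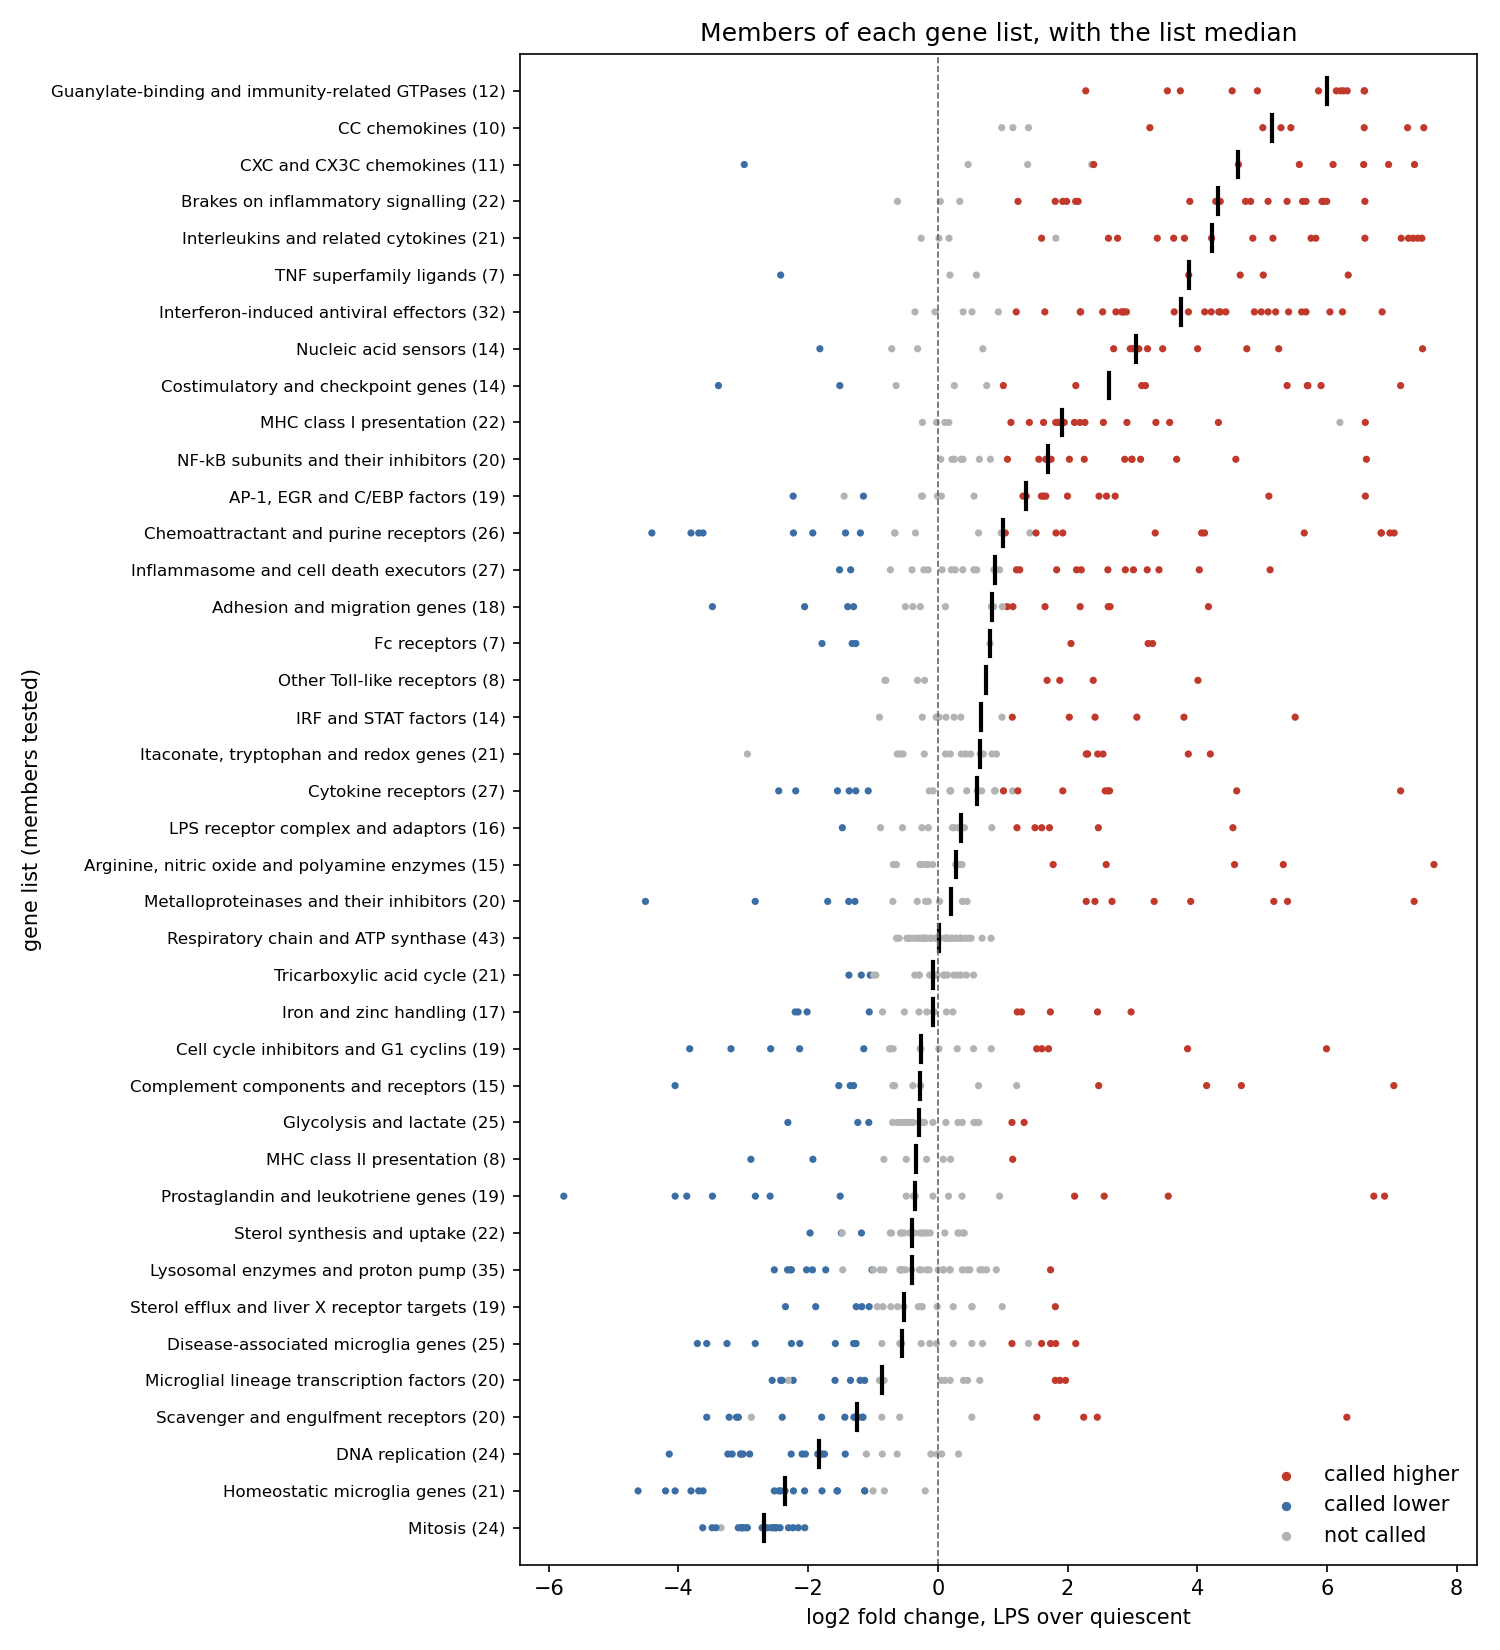
Log2 fold change (LPS over quiescent) of each tested member of 40 gene lists in WT microglia, a row for each list with its number of tested members in brackets; red points were called higher, blue points lower and gray points neither, the black bar is the list's median and the dashed line the median of all genes tested. Guanylate-binding and immunity-related GTPases have the highest median, 6.01, and mitotic genes the lowest, -2.69.

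Promoters of genes that moved together were searched for short motifs, on both strands, in RefSeq windows (GRCm38.p6) that reach from before each gene's start to 50 bases past it. A window was found for 8397 of the genes tested, and motifs may overlap. The NF-κB motif GGANTTTCC was in 3.86% of promoters of genes that rose, 1.25% of those that fell, 1.66% of those of all genes tested and 1.45% of all promoters. The interferon response motif GAAANNGAA was in 17.1%, 6.92%, 8.91% and 9.76%, and the AP-1 motif TGANTCA in 11.3%, 7.03%, 6.22% and 8.97%. Motifs of PU.1 (GAGGAAGT), E2F (GGCGGGAA), sterol response (TCACNCCAC), the lysosomal E-box (TCACGTGA) and the cell cycle homology region (TTTGAA) were in 5.55%, 3.14%, 1.81%, 2.05% and 15.7% of promoters of genes that rose, and in 5.33%, 5.33%, 2.38%, 1.47% and 18.0% of those that fell. Over all genes tested the shares of these motifs were 3.91%, 4.87%, 1.41%, 2.37% and 13.9%, and over all promoters 3.69%, 2.52%, 1.44%, 1.12% and 20.2%. Among lists, the interferon response motif was in 9 of 9 promoters of the GTPases and 16 of 26 of the antiviral effectors. The NF-κB motif was in 4 of 11 CXC and CX3C chemokine and 0 of 11 CC chemokine promoters. In promoters of interleukins and related cytokines the NF-κB motif was in 5 of 18 and the AP-1 motif in 5 of 18. The cell cycle homology region was in 14 of 19 mitotic promoters but also in 11 of 22 inflammasome and cell death and 4 of 9 GTPase promoters, and the lysosomal E-box in 7 of 27 lysosomal promoters. Near copies such as the GTPases share sequence, and a match is a description and not a site. The following promoters, shown as examples chosen for both a motif and a large change, stop at the start and have every searched motif in capitals: Cxcl10 (chr5:92348890-92349139, minus strand), Il6 (chr5:30012864-30013113, plus strand), Gbp5 (chr3:142496684-142496933, plus strand) and Ctsd (chr7:142387828-142388077, minus strand).
Cxcl10: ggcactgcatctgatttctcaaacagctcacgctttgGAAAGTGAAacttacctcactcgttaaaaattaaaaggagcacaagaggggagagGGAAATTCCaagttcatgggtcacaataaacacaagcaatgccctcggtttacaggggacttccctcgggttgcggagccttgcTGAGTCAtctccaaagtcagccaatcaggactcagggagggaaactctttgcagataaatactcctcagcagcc
Il6: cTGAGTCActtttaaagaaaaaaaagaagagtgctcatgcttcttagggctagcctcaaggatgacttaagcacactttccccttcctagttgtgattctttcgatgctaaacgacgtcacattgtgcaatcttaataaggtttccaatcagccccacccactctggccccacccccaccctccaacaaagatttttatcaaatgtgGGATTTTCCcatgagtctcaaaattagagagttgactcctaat
Gbp5: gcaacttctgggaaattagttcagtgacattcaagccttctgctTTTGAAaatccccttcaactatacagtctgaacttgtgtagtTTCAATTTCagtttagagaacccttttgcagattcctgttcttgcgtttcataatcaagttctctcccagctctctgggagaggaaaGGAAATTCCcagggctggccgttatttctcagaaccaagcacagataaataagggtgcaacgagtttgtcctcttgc
Ctsd: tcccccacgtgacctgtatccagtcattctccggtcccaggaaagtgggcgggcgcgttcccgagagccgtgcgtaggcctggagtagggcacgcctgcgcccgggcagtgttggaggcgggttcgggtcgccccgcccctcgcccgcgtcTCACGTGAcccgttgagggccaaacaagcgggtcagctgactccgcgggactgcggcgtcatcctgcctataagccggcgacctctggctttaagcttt

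LPS-treated microglia of the SOD1G93A line, which carry a mutant human SOD1 transgene and were bred into C57BL/6J among other lines, were measured in a table normalized separately with the same quiescent libraries, so the levels are given side by side and were not tested. In that table Il1b was at 30011, 29653 and 20253 in SOD1G93A LPS cultures and 207, 154 and 196 in quiescent WT cultures. Nos2 was at 2763, 2795 and 305 against 17.8, 11.2 and 16.1, and Rsad2 at 9038, 10019 and 2167 against 150.3, 148 and 157. In these 3 genes LPS library 3 of SOD1G93A microglia was the lowest of its group and still above each quiescent library. Tmem119 was at 93.5, 119 and 194 against 2093, 2401 and 2152 and Mki67 at 307, 328 and 374 against 1693, 1248 and 1796, and here the SOD1G93A LPS libraries were below each quiescent library.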

How the data were processed

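The authors aligned paired-end poly(A) RNA-seq reads to mm10 with STAR 2.7.3a, counted genes with RSEM and deposited DESeq2 normalized counts per library, a signal scaled by size factors; their fold change and p columns were not used. Dividing each library's values by the value of 1 read gave whole reads (100% of values within 0.001), which set the depths given above and served the count tests tried as alternatives. Normalized counts were tested as log2(value + 1) with limma 3.58.1 (R 4.3.3, empirical Bayes with a mean trend, Benjamini-Hochberg adjustment over all genes tested), 3 against 3 libraries, after a filter at a mean of 10. Genes were called at an adjusted p under 0.001 and over 2-fold, the limits of the study. The named genes are the 12 largest rises and 12 largest falls among called genes with a mean of at least 100 and groups that did not overlap, key members of each list, the 2 called members of each list with the largest rise and fall (all called members where 5 or fewer were called), and the 5 genes with the most counts in each state; the text gives part of them. Members and lists were chosen with earlier results of these data known. Lists are described by counts and medians. Alternatives were other pseudocounts, filters, scalings, thresholds, DESeq2 1.42.0 and edgeR 4.0.16 on recovered reads, a replicate block and each library left out. The fit was tested on simulated data. Some genes are not reported here. Promoter sequences, gene positions and symbols come from RefSeq on GRCm38.p6 (mm10), and transcript lengths from GENCODE M21.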

Additional observations from a re-analysis of the deposited data

How the results depend on the processing

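Against 1110 genes higher and 1153 lower, leaving out each library gave 1031 to 1137 higher and 934 to 1197 lower. Counts stayed within 1.5 times of these under each alternative but the threshold of adjusted p under 0.05 at any fold, with 3113 higher and 3072 lower, which is less strict by construction. DESeq2 on recovered reads called 1157 and 1238, edgeR 1133 and 1224, and quantile normalization 1036 and 1203. With the replicate number as a block the counts were 1092 and 1109. Deviations of same-numbered libraries correlated at -0.028, -0.0038 and 0.054 across genes, which are not independent replicates, so the numbers were not taken as pairing. Some named genes that were not called changed sign, and the cause was not tested. Under quantile normalization the log2 fold changes were Apoe -0.32, Ftl1 0.19, Grn -0.39, Hmox1 -0.11, Il10ra -0.0046, Lamp1 -0.076, Runx1 -0.18, Spi1 -0.19, Tgfb1 -0.25, and under TMM scaling Mylip 0.0045. Leaving out each library, the lowest and highest log2 fold changes were: Abca1 -0.47 to 0.025, Ass1 -0.37 to 0.016, Cebpd -0.084 to 0.24, Col1a1 -0.80 to 0.18, Gfap -0.19 to 0.16, Gpnmb -0.093 to 0.028, Mt1 -0.18 to 0.12, Mylip -0.055 to 0.016, Ripk3 -0.033 to 0.23, Runx1 -0.049 to 0.21, Tgfb1 -0.033 to 0.081. Depth limits low genes most in quiescent library 2, where 3 reads are worth 6.31 normalized counts.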
